A study of Saccharomyces cerevisiae with 4 samples.

Results

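The 7 genes of histidine synthesis, HIS1 to HIS7, of budding yeast (Saccharomyces cerevisiae) were followed in poly(A) RNA, out of 7126 genes in the deposited table. They were taken by gene symbol and are given in pathway order, and all 7 had a value in every library. The strain labelled T4V carries valine in place of threonine at position 4 of the repeats in the RNA polymerase II C-terminal domain (CTD), and the strain labelled WT is wild type. Each genotype had 2 libraries, named A and B after the letters of the table's columns. The labels do not say whether the libraries of a genotype came from separate cultures. A p-value here thus rests on spread between libraries, which may be technical. No source used here gives the medium, whether it held histidine, the growth phase, the strain background or the way the T4V allele was carried.

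Histidine synthesis starts from ATP and phosphoribosyl pyrophosphate (PRPP). HIS1 encodes the phosphoribosyltransferase of the committed step, which histidine inhibits. HIS4 encodes a trifunctional enzyme that acts early in the pathway and again at its end, as histidinol dehydrogenase. HIS6 encodes the isomerase that follows. HIS7 encodes a glutamine-using synthase that makes imidazole glycerol phosphate and releases AICAR, an intermediate of purine synthesis. HIS3 encodes the dehydratase, HIS5 the aminotransferase and HIS2 the histidinol phosphatase. In budding yeast the pathway is under general amino acid control, in which the transcription factor Gcn4 binds TGACTC-type elements of many amino acid synthesis genes. HIS4 and HIS7 are also known targets of Bas1 and Pho2, which activate purine synthesis genes. A TGACTC match in a sequence does not show which protein, if any, binds there. HIS3 is often deleted in laboratory strains as a selection marker.

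The genes lie apart, on 6 chromosomes of the R64 assembly, which is the sequence of sacCer3. HIS1 (YER055C) is on chromosome V at 264892 to 265785 and HIS4 (YCL030C) on chromosome III at 65934 to 68333, both on the minus strand. HIS6 (YIL020C) is on chromosome IX at 314035 to 314820 and HIS7 (YBR248C) on chromosome II at 714807 to 716465, both on the minus strand. HIS3 (YOR202W) is on chromosome XV at 721946 to 722608 and HIS5 (YIL116W) on chromosome IX at 142928 to 144085, both on the plus strand. HIS2 (YFR025C) is on the minus strand of chromosome VI at 203743 to 204750. These are annotated gene spans, and none of them overlaps another annotated gene. Genes of the table without annotated coordinates could not be checked for overlap.

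The 250 bases before the start codon are printed for 4 of the genes, 5′ to 3′ on the strand of the gene, from the RefSeq sequence of R64. HIS4 and HIS5 are shown because they differed most between the genotypes, HIS6 because it alone was lower in both T4V libraries, and HIS3 because it had the lowest level. Capitals mark TGACTC on either strand, which reads GAGTCA where the match is on the opposite strand.
HIS4 (chrIII:68334-68583, minus strand): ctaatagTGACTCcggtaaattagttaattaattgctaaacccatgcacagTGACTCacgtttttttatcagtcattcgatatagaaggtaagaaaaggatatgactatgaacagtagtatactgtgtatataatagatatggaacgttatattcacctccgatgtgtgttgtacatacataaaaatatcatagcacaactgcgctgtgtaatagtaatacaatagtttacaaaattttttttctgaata
HIS5 (chrIX:142678-142927, plus strand): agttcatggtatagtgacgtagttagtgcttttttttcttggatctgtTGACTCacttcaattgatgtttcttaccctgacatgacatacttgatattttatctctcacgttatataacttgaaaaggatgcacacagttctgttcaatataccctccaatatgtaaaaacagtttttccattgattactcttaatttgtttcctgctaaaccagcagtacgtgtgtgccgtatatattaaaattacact
HIS6 (chrIX:314821-315070, minus strand): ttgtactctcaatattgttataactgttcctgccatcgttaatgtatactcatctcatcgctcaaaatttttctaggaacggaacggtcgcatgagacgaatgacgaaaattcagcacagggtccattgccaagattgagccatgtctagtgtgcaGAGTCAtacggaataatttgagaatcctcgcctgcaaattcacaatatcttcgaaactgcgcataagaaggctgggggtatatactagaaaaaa
HIS3 (chrXV:721696-721945, plus strand): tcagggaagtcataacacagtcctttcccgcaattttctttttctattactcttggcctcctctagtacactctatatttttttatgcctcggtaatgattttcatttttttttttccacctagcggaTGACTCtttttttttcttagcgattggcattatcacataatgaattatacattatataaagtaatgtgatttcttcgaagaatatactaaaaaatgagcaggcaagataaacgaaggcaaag

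Of the 7 windows, 6 held TGACTC. Over all nuclear protein-coding genes, 6.25% of 6001 windows of the same length held it on either strand. HIS4 and HIS7 had 2 matches each, and 0.400% of all windows held 2 or more. HIS1, HIS6, HIS3 and HIS5 had 1 match each. The longer form TGACTCA, which contains the shorter one, was found once in each of the HIS1, HIS4, HIS7 and HIS5 windows and in 2.17% of all windows. The matches lay up to 243 bases before the start codon in HIS4, and from 202 to 197 bases before it in HIS5. In HIS6 the match lay from 94 to 89 bases before the start codon, on the opposite strand, and in HIS3 from 122 to 117 bases. The HIS2 window held no match and takes in a transfer RNA gene at 204924 to 204996 on chromosome VI.

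Levels are given as RPKM, read counts scaled to the length of the gene and to the size of the library, so they can be set side by side between genes. RPKM is relative to the library and does not show RNA per cell. The libraries held 3355000 and 4261000 reads for T4V and 4068000 and 3655000 for WT, recovered from the steps between low RPKM values. RPO21, the gene of the altered subunit, averaged 52.4 ± 2.36 RPKM in T4V and 52.5 ± 1.26 RPKM in WT (SD, n = 2 each). RPKM does not show the altered codons, so the genotype of each library rests on its label. All 5 RNA markers of mating type a were present in each library. Of 4 alpha markers, the pheromone genes MF(ALPHA)1 and MF(ALPHA)2 and the receptor gene STE3 stayed at 3.65 RPKM or less, while SAG1 reached 13.5 RPKM.

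Most of the pathway was higher in T4V. With limma on log2(RPKM + 1) and a Benjamini-Hochberg adjusted p under 0.05 over 5935 genes tested, 5 of the 7 genes rose (HIS1, HIS4, HIS7, HIS5 and HIS2) and 0 fell, while 2 had an unadjusted p under 0.05 without passing. In that fit 11.7% of all genes tested rose and 6.25% fell. By voom on the recovered reads 5 of the 7 rose and 1, HIS6, fell, against 17.9% and 10.3% of all genes. The median log2 fold change, T4V minus WT, was 0.44 over the 7 genes and 0.07 over all genes tested. Both T4V libraries lay above both WT libraries for 6 of the 7 genes and below them for HIS6. Over all genes tested these arrangements were found for 38.6% and 23.4%. The summed level of the 7 genes was 2751 and 2501 RPKM in T4V libraries A and B, against 1794 and 1798 RPKM in WT libraries A and B.

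**Figure D1:**
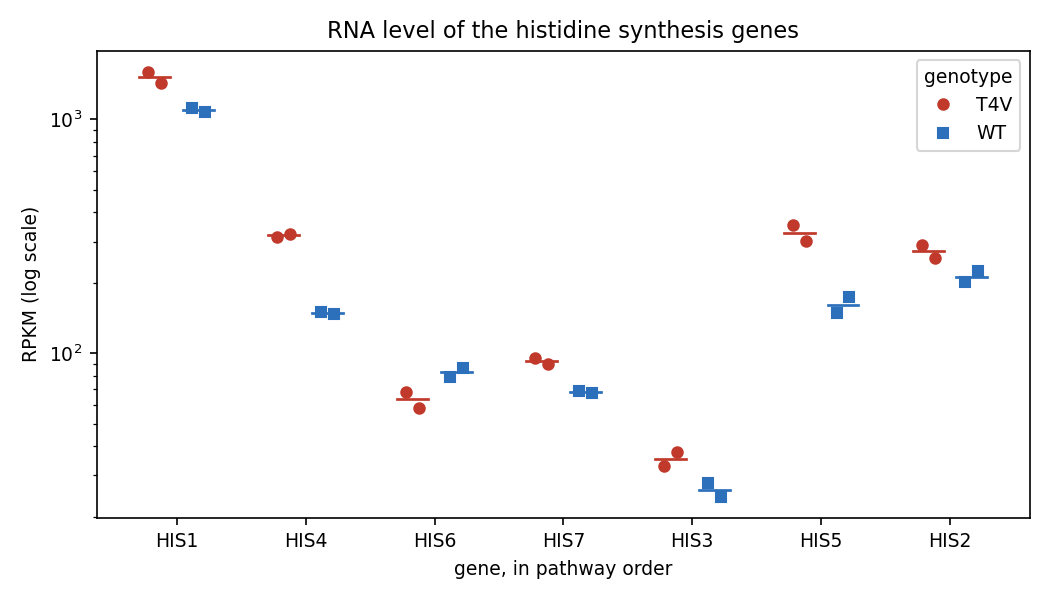
RPKM of each histidine synthesis gene in every library, on a log axis, in pathway order. Circles are T4V libraries, squares are WT libraries, each pair runs from library A on the left to B on the right, and lines mark the mean of 2 libraries. The T4V points lie above the WT points for 6 genes and below them for HIS6, and HIS1 stands above all other genes at 1076 to 1596 RPKM.

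HIS1, the committed step, had the highest level of the pathway. It had 1596 and 1434 RPKM in T4V libraries A and B, against 1119 and 1076 RPKM in WT libraries A and B. Both T4V values were above both WT values. The log2 fold change was 0.46 ± 0.07 (SE, n = 2 each), a 1.38-fold rise with a limma adjusted p of 0.00717. HIS1 made up 58.0% and 57.3% of the summed RPKM of the 7 genes in T4V and 62.4% and 59.8% in WT. Its call was lost when the variance trend was left out (adjusted p = 0.0713).

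HIS4, the trifunctional enzyme, had the largest log2 fold change of the 7. It had 316 and 324 RPKM in T4V libraries A and B, against 149 and 147 RPKM in WT libraries A and B. The 2 libraries of a genotype were close together and the genotypes were far apart. HIS4 rose 2.15-fold, a log2 fold change of 1.10 ± 0.06 (SE) with a 95% interval of 0.95 to 1.26 and a limma adjusted p of 0.000259. Of the 5935 genes tested, it ranked at position 164 from the highest log2 fold change. Its level relative to HIS1 was 19.8% and 22.6% in T4V and 13.4% and 13.7% in WT.

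HIS6, the isomerase, was the 1 member with lower values in T4V. It had 68.3 and 58.5 RPKM in T4V libraries A and B, against 79.1 and 86.3 RPKM in WT libraries A and B. The groups did not overlap, with both T4V values below both WT values. The log2 fold change was -0.38 ± 0.11 (SE) with a 95% interval of -0.63 to -0.13, and the limma adjusted p of 0.0505 missed the threshold. It rested on 376 reads in T4V and 501 in WT, a ratio of 0.761 corrected for library size, with an exact binomial 95% interval of 0.664 to 0.872 that covers counting error only. HIS6 passed under 8 of 14 other settings, with adjusted p from 0.0138 to 0.208 over all 14. Those settings include a replicate block by column letter, added after the data were seen, under which HIS6 passed. The enzymes on each side of HIS6 in the pathway, HIS4 and HIS7, both rose. HIS4 RNA exceeded HIS6 RNA 4.63-fold and 5.53-fold in the T4V libraries and 1.89-fold and 1.70-fold in the WT libraries.

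HIS7, the synthase that releases AICAR, had 95.8 and 90.3 RPKM in T4V libraries A and B, against 68.8 and 67.5 RPKM in WT libraries A and B. The genotypes did not overlap. HIS7 rose 1.36-fold, a log2 fold change of 0.44 ± 0.08 (SE) with a limma adjusted p of 0.0144. The call was lost without T4V library A (adjusted p = 0.0696) and without the variance trend (adjusted p = 0.0594).

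HIS3, the dehydratase, had the lowest level of the pathway in all 4 libraries. It had 32.8 and 37.9 RPKM in T4V libraries A and B, against 27.8 and 24.4 RPKM in WT libraries A and B. Both T4V values were above both WT values, but the log2 fold change of 0.42 ± 0.13 (SE) did not pass the test (limma adjusted p = 0.0667), nor under any of 14 other settings. It rested on 180 reads in T4V and 134 in WT, a ratio of 1.36 with an exact binomial 95% interval of 1.08 to 1.72. HIS1 RNA stood 48.6-fold and 37.9-fold above HIS3 RNA in the T4V libraries and 40.2-fold and 44.2-fold above it in the WT libraries.

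HIS3 RNA was thus present in both genotypes, and RPKM per gene does not show whether part of the gene was missing, so its use as a marker was not tested. RNA of other genes that laboratory strains often lack was present as well, and the same limit applies to them. URA3, LEU2, TRP1, LYS2, ADE2 and MET17 had 31.3 RPKM or more in every T4V library and 23.1 RPKM or more in every WT library. The genes next to HIS3 are MRM1, a mitochondrial ribosomal RNA methyltransferase read in the opposite direction, and DED1, an RNA helicase. MRM1 averaged 100.1 ± 1.26 RPKM in T4V and 96.7 ± 0.520 RPKM in WT (SD, n = 2 each), with a limma adjusted p of 0.680. DED1 averaged 426 ± 6.34 RPKM in T4V and 487 ± 4.18 RPKM in WT (SD, n = 2 each), with a limma adjusted p of 0.0643, and was called lower after median-of-ratios scaling, after quantile normalization and by voom.

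HIS5, the aminotransferase, had 352 and 301 RPKM in T4V libraries A and B, against 148 and 174 RPKM in WT libraries A and B. The 2 libraries of each genotype differed more than those of HIS4, but the genotypes were well apart. HIS5 rose 2.02-fold, a log2 fold change of 1.01 ± 0.11 (SE) with a 95% interval of 0.76 to 1.27 and a limma adjusted p of 0.00230. HIS4 and HIS5 kept their calls under all 14 other settings, with log2 fold changes of 1.03 to 1.12 for HIS4 and 0.90 to 1.13 for HIS5.

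HIS2, the phosphatase, had 291 and 256 RPKM in T4V libraries A and B, against 201 and 224 RPKM in WT libraries A and B. The groups did not overlap, though the lower T4V value stood near the higher WT value. HIS2 rose 1.28-fold, a log2 fold change of 0.36 ± 0.09 (SE) with a limma adjusted p of 0.0380. This call was lost after median-of-ratios scaling (adjusted p = 0.0650), quantile normalization (0.0782), without the variance trend (0.138), without T4V library A (0.160) and without WT library A (0.0917).

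**Figure D2:**
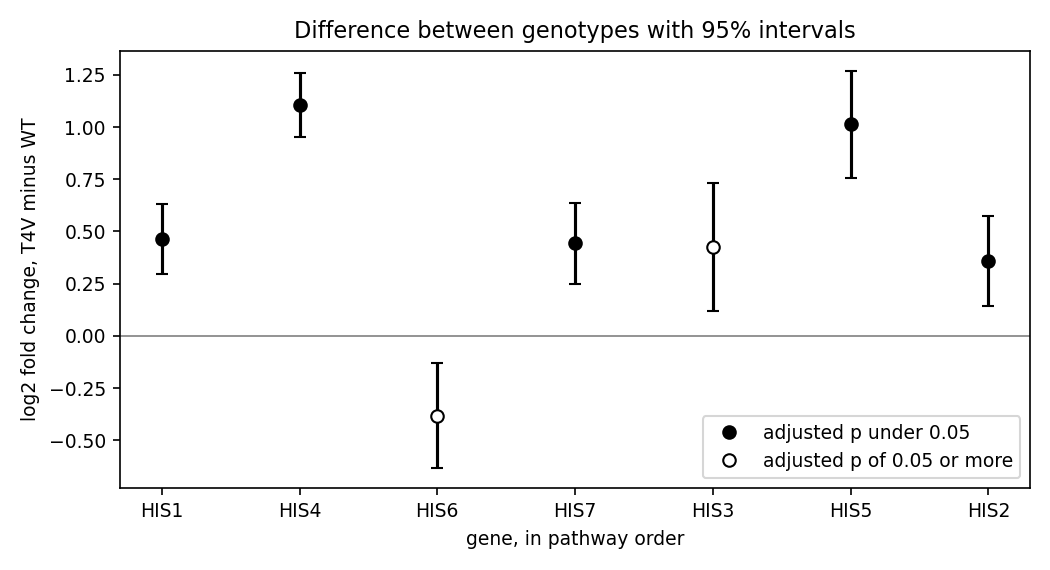
Log2 fold change, T4V minus WT, of each histidine synthesis gene in pathway order, with 95% intervals from limma on log2(RPKM + 1), not adjusted for the number of genes. Filled points passed the adjusted threshold: HIS4 and HIS5 lie near 1, HIS1, HIS7 and HIS2 between 0.36 and 0.46, and the open points are HIS3 at 0.42 and HIS6 at -0.38.

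The order of the levels within the pathway differed between the genotypes. In T4V it ran HIS1, HIS5, HIS4, HIS2, HIS7, HIS6 and HIS3 from the highest mean RPKM, and the ranges of HIS5 and HIS4 overlapped. In WT it ran HIS1, HIS2, HIS5, HIS4, HIS6, HIS7 and HIS3, and again the ranges of HIS5 and HIS4 overlapped. All other neighbours in these orders had ranges over the 2 libraries that did not overlap. HIS5 was thus above HIS2 in T4V, by 1.21-fold and 1.18-fold in libraries A and B, and below it in WT, at 0.738 and 0.776 of its level. HIS7 was above HIS6 in T4V and below it in WT.

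The list of 19 regulators held general control genes together with BAS1 and PHO2. Of these, 10.5% rose (2) and 10.5% fell (2), against 11.7% and 6.25% of all genes tested. The median log2 fold change was 0.08 over the list and 0.07 over all genes tested. GCN4, whose protein activates the pathway and is controlled mainly in translation, had 2713 and 2657 RPKM in T4V and 2396 and 2460 RPKM in WT. Its log2 fold change of 0.15 did not pass (limma adjusted p = 0.116), though voom called it higher (adjusted p = 0.0443), and RNA levels do not show the amount of Gcn4 protein. GCN2, the kinase that senses uncharged transfer RNA, stood at 0.36 with a limma adjusted p of 0.115, and voom called it higher (0.00330).

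GCD10, a subunit of the transfer RNA methyltransferase whose mutants raise GCN4 translation, fell steeply. It had 22.4 and 18.9 RPKM in T4V libraries A and B, against 88.4 and 99.4 RPKM in WT libraries A and B. Both T4V values lay far below the WT values. The change was -2.13 ± 0.12 on the log2 scale (SE), past the threshold at an adjusted p of 0.000223 in limma. GCD14, the other subunit of that enzyme, stood at 0.14 with an adjusted p of 0.322.

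PCL5, a cyclin that directs the breakdown of Gcn4 and is itself a Gcn4 target, had 638 and 600.3 RPKM in T4V and 367 and 391 RPKM in WT. PCL5 rose by 0.71 on the log2 scale (limma adjusted p = 0.00150). SUI3, the beta subunit of the initiation factor that Gcn2 acts on, fell by 0.39 (adjusted p = 0.0275), a call lost without T4V library A, without WT library A and without the variance trend. BAS1 stood at 0.05 (adjusted p = 0.810). Its partner PHO2 rose by 0.43 (adjusted p = 0.0480), a call lost under 8 of 14 other settings.

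The supply of substrates was mixed, with 3 of 10 genes higher and 1 lower and a median of 0.09. Over all genes tested 11.7% rose and 6.25% fell. GLN1, glutamine synthetase, had 1538 and 1475 RPKM in T4V and 1114 and 1095 RPKM in WT, and rose by 0.45 (limma adjusted p = 0.00408), a call lost without the variance trend. GLT1, glutamate synthase, rose by 0.59 (adjusted p = 0.00604). The PRPP synthetase subunits did not move together. PRS3 had 113 and 116 RPKM in T4V and 202 and 199 RPKM in WT, and fell by 0.80 (adjusted p = 0.00117). PRS1 rose by 0.25 (adjusted p = 0.0479), a call lost under 8 of 14 other settings, and PRS2, PRS4 and PRS5 had log2 fold changes of 0.27, 0.11 and 0.08 that did not pass.

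Of 7 genes of histidine uptake and charging, 6 were tested, and 2 rose and 2 fell, against 11.7% and 6.25% of all genes tested. HIP1, the high-affinity histidine permease, had 31.7 and 26.6 RPKM in T4V and 66.5 and 63.1 RPKM in WT. Both T4V values lay below both WT values, and HIP1 fell by 1.13 ± 0.12 on the log2 scale (SE, limma adjusted p = 0.00210). GAP1, the general amino acid permease, had 647 and 648 RPKM in T4V and 340.3 and 364 RPKM in WT, and rose by 0.88 (adjusted p = 0.000635). RTC2, a vacuolar transporter of basic amino acids, had 11.4 and 14.5 RPKM in T4V and 4.69 and 3.99 RPKM in WT, and rose by 1.38 (adjusted p = 0.00962), a call lost without T4V library B. VBA1, another vacuolar transporter, fell by 0.40 (adjusted p = 0.0446), a call lost under 7 of 14 other settings. HTS1, the histidyl-tRNA synthetase, had a log2 fold change of 0.20 (adjusted p = 0.117, and 0.0476 by voom), and VBA3 was listed at 0 in all libraries.

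Purine synthesis takes up the AICAR released at the HIS7 step. In it 8 of 10 genes rose and the median was 0.93, while 11.7% of all genes tested rose. The other 2 genes, ADE8 and ADE16, did not pass in limma, at log2 fold changes of 0.31 and 0.23. ADE17, which converts AICAR, had 223 and 226 RPKM in T4V and 62.2 and 58.4 RPKM in WT, and rose by 1.88 (limma adjusted p = 9.4e-05). Its paralog ADE16 had 241 and 257 RPKM in T4V and 216 and 208 RPKM in WT, with an adjusted p of 0.0662, and was called higher by voom (0.0111). The split of reads between such copies is uncertain. The upstream windows of 7 of the 10 genes held TGACTC. Among the other amino acid lists below it was in 9 of 12 aspartate, threonine and serine windows, where the list median was 0.13. It was in 6 of 11 branched-chain, 5 of 9 arginine, 3 of 8 lysine and 5 of 14 aromatic windows. Of the lists above, 2 of 7 uptake and charging windows held it, and 0 of 19 regulator and 0 of 10 substrate windows.

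Genes for other amino acids rose in part. Over 5 lists with 54 genes, 37.0% rose (20) and 1.85% fell (1), against 11.7% and 6.25% of all genes tested. The median log2 fold change of the 54 genes was 0.24. Lysine synthesis had 4 of 8 genes higher with a median of 0.35, branched-chain synthesis 5 of 11 with 0.26, aromatic synthesis 5 of 14 with 0.25, arginine synthesis 3 of 9 with 0.20, and aspartate, threonine and serine synthesis 3 of 12 with 0.13. Arginine synthesis held the 1 gene that fell, ARG3, the ornithine transcarbamylase, at -0.59 (limma adjusted p = 0.00216). LYS1, saccharopine dehydrogenase, rose by 1.10 (adjusted p = 0.00103), close to HIS4, and ARO9, an aromatic aminotransferase, by 1.36 (adjusted p = 0.00553). Without T4V library A 1 to 2 genes of each of the 5 lists rose, 1 to 3 without T4V library B, and 0 to 1 without the variance trend. After median-of-ratios scaling 1 branched-chain gene rose, and by voom 10 aromatic genes did. The purine genes that rose numbered 7 to 9 under all of these. Genes of all these lists share the same 4 libraries, and no test compared the lists.

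**Figure D3:**
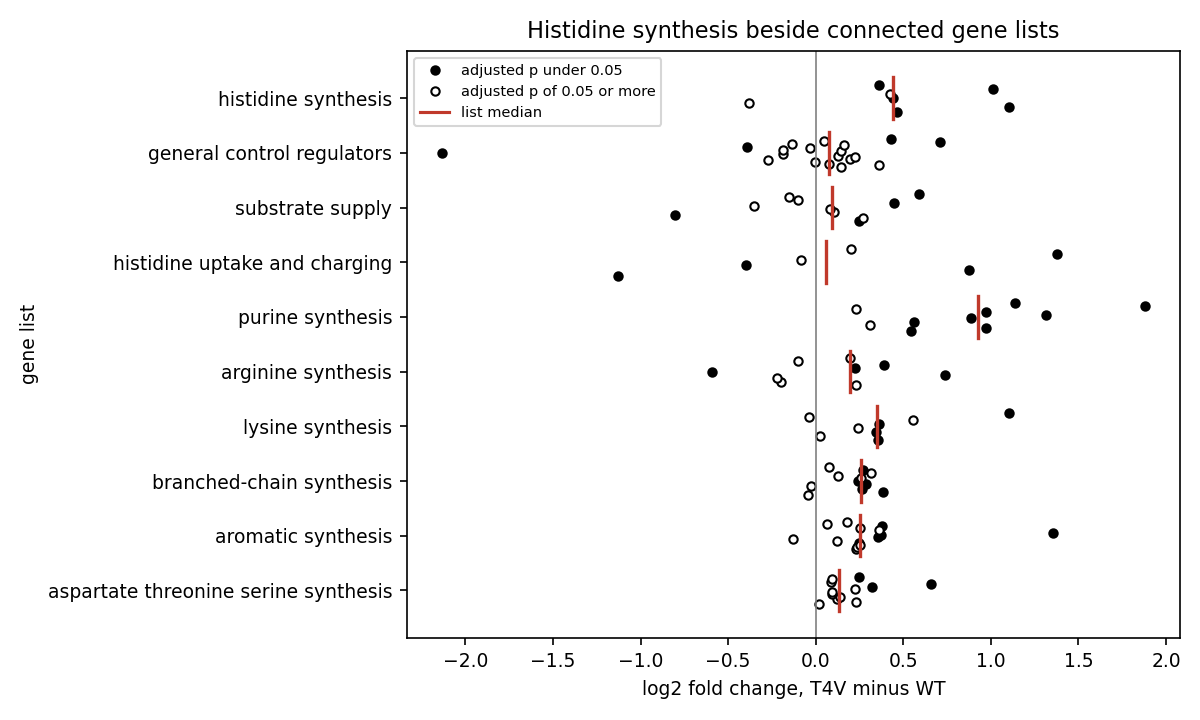
Log2 fold change, T4V minus WT, of every tested gene in the histidine synthesis list and 9 companion lists, 1 point per gene. Filled points passed an adjusted p under 0.05 in limma, and red lines mark list medians. The median is 0.44 for histidine synthesis and 0.93 for purine synthesis, and HIS6 is the open point left of 0 at the top.

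Genes tested that had an upstream window were also split by TGACTC, as a description with no test. Windows were taken for nuclear protein-coding genes of the annotation, so some of the genes tested were left out. Of 362 genes with a match 21.3% rose and 4.14% fell, with a median log2 fold change of 0.16. Of 5208 genes without a match 10.8% rose and 6.55% fell, with a median of 0.06. Of 23 genes with 2 or more matches, which are also among the 362, 47.8% rose (11) and 0 fell, with a median of 0.44. HIS4 and HIS7 are themselves among the 11 that rose. HIS6 and HIS3 carry a match and did not pass, with log2 fold changes of -0.38 and 0.42. HIS2 carries none in its window and rose, a call lost under some other settings.

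Among 13 chromosomal neighbours of the members with a value, 3 rose and 0 fell, against 11.7% and 6.25% of all genes tested. The 3 were FCY2 upstream of HIS1, ARO4 (also in the aromatic list) upstream of HIS7 and PRM5 upstream of HIS5, at 0.32, 0.25 and 0.33. Their limma adjusted p were 0.0213, 0.0429 and 0.0273, and each call was lost under 5 or more of 14 other settings. BIK1 and RRP7, on each side of HIS4, had log2 fold changes of 0.03 and -0.10 (adjusted p of 0.859 and 0.456). FAF1 and RPB3, on each side of HIS6, had -0.31 and -0.04 (adjusted p of 0.263 and 0.804).

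The mean profile of the 7 genes over the 4 libraries was 0.29 and 0.20 above the 4-library mean in T4V libraries A and B, and 0.26 and 0.23 below it in WT libraries A and B, on the log2(RPKM + 1) scale. The 5 genes with the most similar profile were YAP1801, CTH1, PHO80, RNA15 and RPN4, with root mean square differences from 0.00498 to 0.0188. Their log2 fold changes ran from 0.47 to 0.50. Over 4 libraries in 2 groups such likeness is mainly a likeness of fold change.

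**Figure D4:**
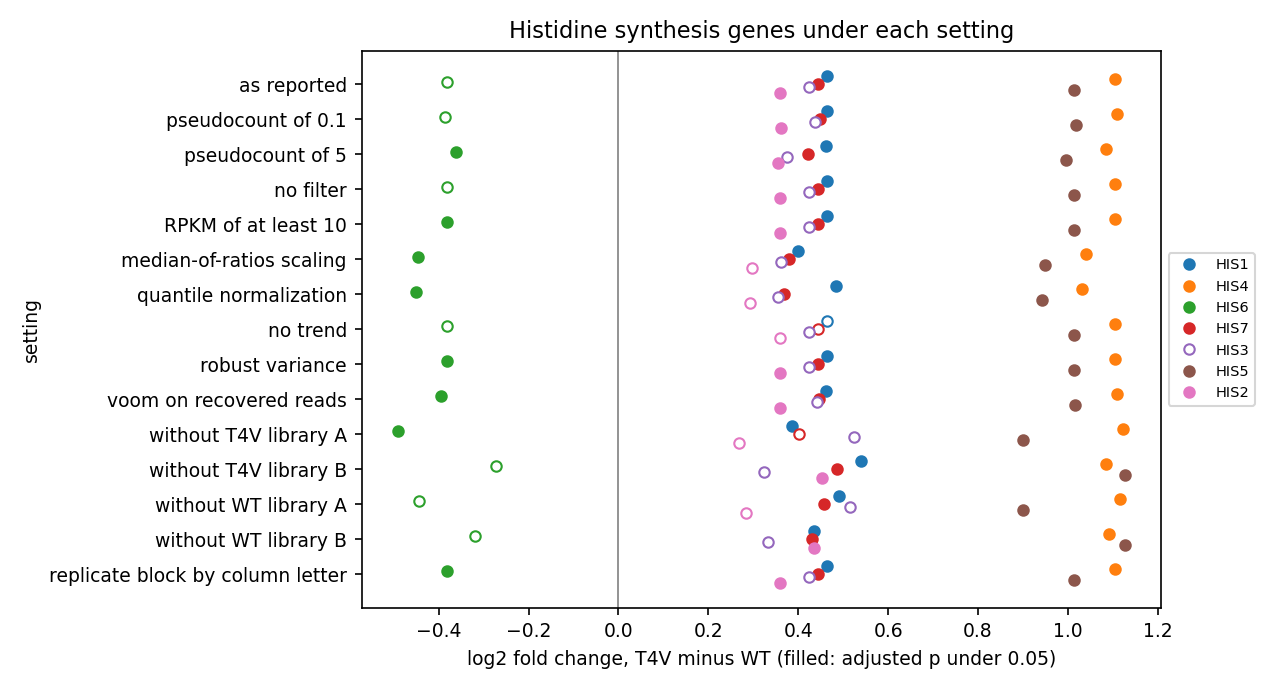
Log2 fold change, T4V minus WT, of the 7 histidine synthesis genes as reported and under 14 other settings. The replicate block by column letter was added after the data were seen. Filled points had an adjusted p under 0.05. HIS4 and HIS5 are filled at every setting, HIS3 is open at every setting, HIS6 is left of 0 at every setting, and HIS2 is open at 5 settings.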

How the data were processed

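RNA of 2 T4V and 2 WT libraries was compared. Per the labels' protocols, poly(A) RNA was fragmented, ligated to adapters so that strand was kept, and amplified by PCR. Bowtie2 aligned the reads to sacCer3, per the submitters' processing notes. No source used here gives its version, the counting program, the annotation or the strand setting. RPKM values were deposited by the authors, 1 column per library, without pooling.

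The test was limma 3.58.1 (R 4.3.3) on log2(RPKM + 1) with a variance trend, 2-sided, without rescaling. It moderates the variance of each gene with that of other genes. An SE or p-value from it is therefore not the spread of that gene's own libraries alone. Genes entered it if 2 or more libraries had an RPKM of 1 or more. Fold changes on this scale understate the change of low genes. Reads per gene were recovered from the RPKM steps and the exonic length, and 99.3% to 99.6% of low genes came within 0.1 of a whole read. Of 7126 genes, 6048 matched the R64 annotation by systematic name. On simulated tables of 5578 genes the fit recovered 43.9% of genes changed 1.5-fold and 87.9% changed 2-fold, and 5.47% of calls were false. In those tables few genes changed, up and down alike, and every gene had the same spread between libraries beyond counting error. The real data differ in this, so 5.47% is not the error rate of the real calls. The 2 libraries of each genotype differed by more than sampling noise (chi-square per gene of 2.36 in T4V and 2.97 in WT).

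Members and lists were chosen with earlier results of these data known. The genes named are the members, the listed genes, chromosomal neighbours, RPO21 and the 5 genes of most similar profile. Python 3.11.15, pandas 2.3.3, numpy 2.4.6, scipy 1.17.1, biopython 1.88 and matplotlib 3.10.9 were used. Alternatives changed the pseudocount (0.1, 5), filter (none, RPKM of at least 10), scaling, variance model, threshold (0.01) and test (voom), and left out each library.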

Additional observations from a re-analysis of the deposited data

How the results depend on the processing

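HIS4 and HIS5 kept direction and call under all 14 other settings, and no member changed sign under any. Members called higher numbered 5, against 2 without the variance trend and 3 at an adjusted p under 0.01, and 3 to 5 when 1 library was left out, the lowest without T4V library A. HIS1 (0.46) and HIS7 (0.44) missed the threshold without the trend, and HIS2 did so without the trend (0.36), after median-of-ratios scaling (0.30) and after quantile normalization (0.29). Leaving out 1 library gave log2 fold changes of 0.40 to 0.49 for HIS7 and 0.27 to 0.45 for HIS2. The 1 member called lower elsewhere, HIS6, passed with a pseudocount of 5 (-0.36), with an RPKM of at least 10 or the robust variance (-0.38 each), after median-of-ratios scaling or quantile normalization (-0.45 each) and by voom (-0.39), and ran from -0.49 to -0.27 when 1 library was left out, passing without T4V library A. Members called lower were then 1, and 0 to 1 with 1 library left out. Companion genes called higher were 35, against 15 without the trend and 17 at an adjusted p under 0.01, and 20 to 29 with 1 library left out. All genes called were 1063, against 399 without the trend and 364 at an adjusted p under 0.01, and 666 to 973 with 1 library left out, where a lone library is assumed to vary like the other group. Higher genes made up 65.1% of calls, but 50.4% after median-of-ratios scaling and 50.3% after quantile normalization. The cause of these changes was not tested. The columns carry no replicate numbers, but share the letters A and B. A replicate block by letter, added after the data were seen, left 5 members higher and made HIS6 pass (-0.38, adjusted p = 0.0418, 1 member lower). Deviations of the A libraries from their group means correlated at -0.09 over 4909 genes, so the letters are not taken to pair the libraries. HIS3 and HIS6 rested on the fewest reads of the 7 genes.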
